A study of Mus musculus with 24 samples.

Results

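Western diet alone was set against normal chow in mice that received the same oil injections, so that diet was the labelled difference between the groups. WD+oil mice had a high-fat diet and drinking water with 23.1 g/L fructose and 18.9 g/L glucose. ND+oil mice had normal chow and tap water. Both groups were male C57BL/6N mice of 40 weeks whose abdomen was injected weekly with corn oil, the vehicle of carbon tetrachloride in the rest of the study. The labels call the WD+oil state NASH, a fatty liver with inflammation, and the ND+oil state normal. These 12 samples, 6 in each group, were chosen by their titles from the 24 of the series. The other 12 received carbon tetrachloride and are used only in an alternative fit. RNA from serum exosomes was counted on a NanoString nCounter mouse miRNA panel, in which each miRNA is tagged with a barcoded probe and single molecules are counted without amplification. Whether each sample is a separate animal is not stated, so the tests below weigh the groups against sample-to-sample spread, which may be technical.

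MicroRNAs are short RNAs that direct Argonaute proteins to messenger RNAs, mostly through the seed, bases 2 to 8 of the mature strand. Members of a family share a seed and can therefore share targets, although they may come from different genes. Some miRNAs are made mainly in 1 cell type, as miR-122 is in hepatocytes, and vesicles and protein complexes carry such miRNAs into serum. Serum also holds miRNAs of red cells, platelets and leukocytes, partly released while blood clots. A serum level therefore reflects release and clearance as well as expression, and the share of a cell type in the sample cannot be told apart from the amount of miRNA that each of its cells releases.

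The following mature sequences belong to miRNAs on which the results turn. They were taken from RefSeq (GRCm38.p6) and are written 5′ to 3′ with the seed in capitals. The names of the table carry no arm for most of them, so the arm was assigned from general knowledge. The 3 miR-29 members are shown because they share a seed and did not move together.
miR-29c: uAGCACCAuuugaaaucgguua
miR-29b: uAGCACCAuuugaaaucaguguu
miR-29a: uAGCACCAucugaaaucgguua
The families of miR-148a and miR-30a held 4 of the rises (miR-148a, miR-152, miR-30a and miR-30d).
miR-148a: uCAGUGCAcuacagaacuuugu
miR-152: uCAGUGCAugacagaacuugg
miR-148b: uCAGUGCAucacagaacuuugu
miR-30a: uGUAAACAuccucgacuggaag
miR-30c: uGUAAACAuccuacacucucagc
miR-30e: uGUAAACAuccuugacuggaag
The let-7 and miR-15/16 families held 6 of the falls.
let-7i: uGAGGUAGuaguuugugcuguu
let-7b: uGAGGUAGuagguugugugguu
let-7d: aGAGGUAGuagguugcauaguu
let-7g: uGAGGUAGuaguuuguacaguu
miR-15a: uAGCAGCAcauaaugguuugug
miR-15b: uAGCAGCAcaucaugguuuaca
miR-16: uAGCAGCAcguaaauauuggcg
miR-192, miR-22 and miR-1224 rose, and no other tested miRNA with a sequence at hand had their seeds.
miR-192: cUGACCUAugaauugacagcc
miR-22: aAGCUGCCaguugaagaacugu
miR-1224: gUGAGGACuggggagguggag
Sequences were found for 83 of the 112 probes tested (74.1%). Among these the median GC content was 47.6% in miRNAs called higher, 40.9% in those called lower and 45.5% in those not called. Over the miRNAs with a sequence, GC content and the log2 difference had a Pearson r of 0.37 and a Spearman rho of 0.42. This is a description only, since many probes lack a sequence here. The part of base composition in the results was not tested.

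The total miRNA count recovered per sample was 48664 to 265265 in WD+oil and 42478 to 204535 in ND+oil. In both groups it was several times lower in replicates 1 to 3 (42478 to 75896) than in replicates 4 to 6 (178252 to 265265), and the labels do not say what separates these sets. A miRNA was taken as above background where its count was over a limit set by the 8 negative control probes, their mean plus 2 SD. In the deposited units this limit was 163 to 277 in replicates 1 to 3 and 38.7 to 71.8 in replicates 4 to 6, so low miRNAs were measured in replicates 4 to 6 only. Neither the total nor the number of miRNAs above the limit was shown to differ with diet. The log2 total was 0.31 higher in WD+oil (adjusted p = 0.816, exact two-sided permutation test, n = 6 each), and 111.5 ± 34.6 miRNAs in WD+oil and 108.2 ± 24.5 in ND+oil lay above the limit (SD, n = 6 each; adjusted p = 0.816, exact permutation test over 5 measures). Of 566 mouse probes, 395 lay above it in none of the 12 samples, 59 in 1 to 5 samples and 112 in at least 6. Those 112 were tested, and none of them passed through the samples of 1 group alone.

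The diet difference was wide. Among the 112 miRNAs, 46 (41.1%) passed an adjusted p under 0.05 in limma on log2 deposited values, 18 (16.1%) higher and 28 (25%) lower in WD+oil. At an unadjusted p under 0.05 the count was 55. A fit over all 24 samples, with its own filter and 158 probes tested, called 17. Scaling to the spike-in probes left 2 of the 112, the rises of miR-122 and miR-192. Under that scaling the differences themselves were of similar size (miR-148a 2.11 against 2.0 in the deposited values, let-7i -1.28 against -1.39, on the log2 scale), but those of miR-148a and let-7i had adjusted p of 0.137 and 0.665 in limma. The median difference over all 112 was -0.24 on the log2 scale, with 43 above 0 and 69 below. That median depends on scaling, at -0.01 with edgeR's scaling and -0.34 with total count scaling, and each difference below is best read against it. The counts of called list and family members below are likewise to be read against 41.1%, 16.1% and 25%. For each of the 46, every WD+oil sample lay on the called side of the ND+oil mean. In 24 of the 112 (21.4%), 12 higher and 12 lower, the 2 groups did not overlap at all, and all 24 were among the 46. The first principal component of the 112 miRNAs (51.4% of the variance) placed WD+oil samples at 3.26 to 9.74 and ND+oil samples at -7.28 to -3.49. The second (21.4%) ran mostly between replicates 1 to 3 and replicates 4 to 6.

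**Figure D1:**
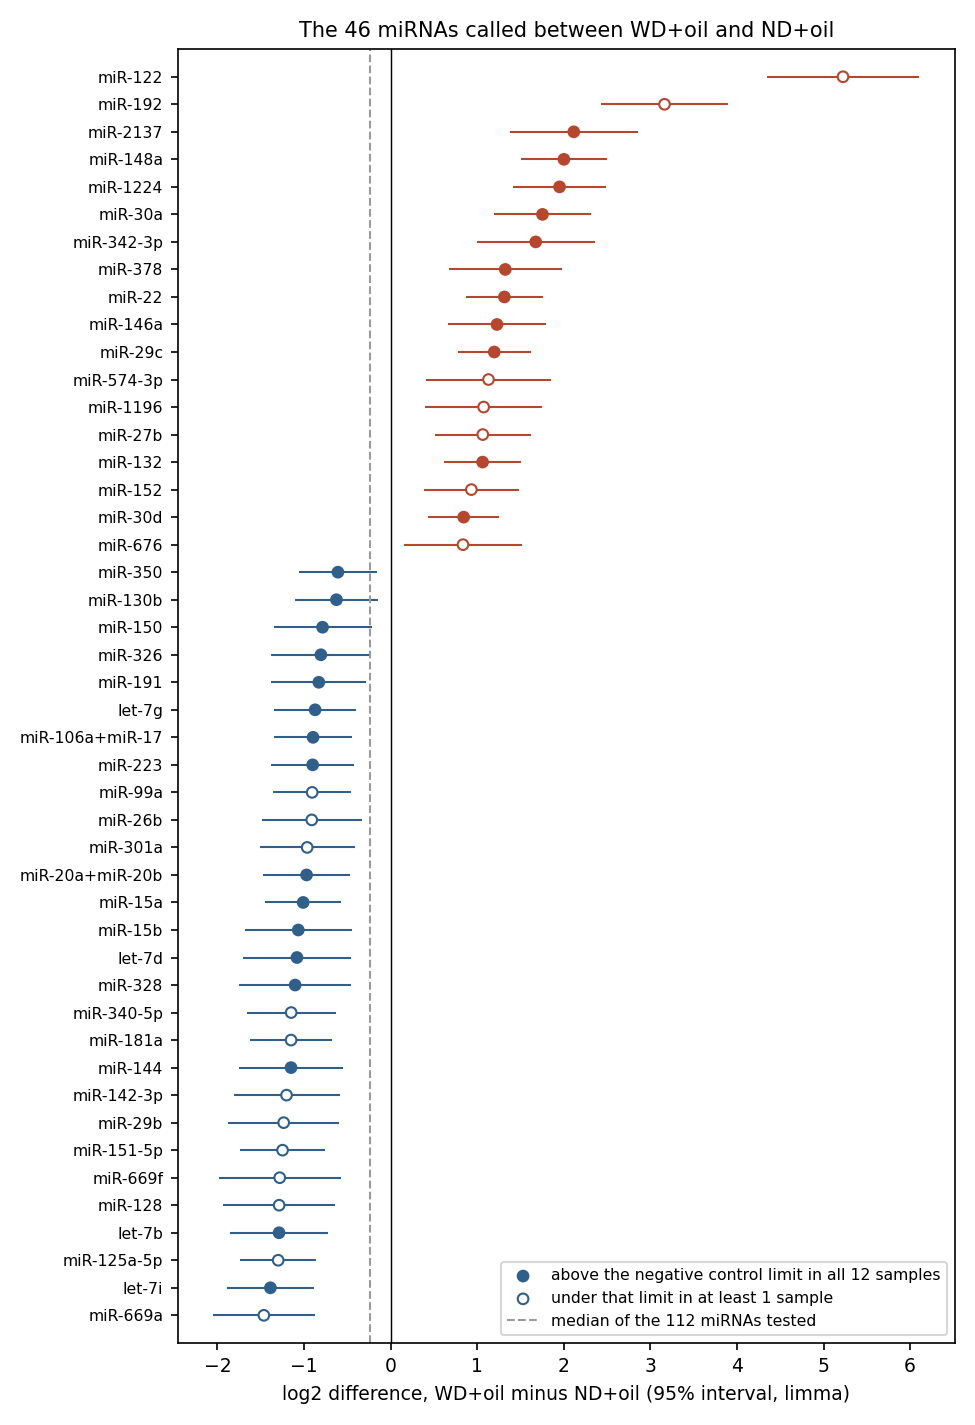
Log2 difference of WD+oil minus ND+oil (x axis) with its 95% interval from limma for each of the 46 miRNAs called, ordered from the largest rise to the largest fall (red higher, blue lower in WD+oil). miR-122 stands apart at 5.23 and miR-192 follows at 3.16, while the falls lie between -1.46 and -0.61; open points were under the negative control limit in at least 1 sample.

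The largest rises were those of miR-122 and miR-192, both enriched in hepatocytes. All 3 members of the hepatocyte-enriched list that were tested rose, against 16.1% of the 112 (6 in the table; median 3.16, against -0.24 over all 112). Of the members not tested, miR-194 was above the limit in none of the 12 samples, and miR-365 and miR-802 in WD+oil samples only. miR-122, which dominates the miRNA content of hepatocytes and regulates cholesterol and lipid genes, was at 2949, 6359 and 10211 in WD+oil (lowest, median and highest of 6, deposited units), against 78.0, 155 and 313 in ND+oil. Every WD+oil sample held over 9 times the highest ND+oil level. The log2 difference was 5.23 ± 0.42 (SE), a 37.4-fold rise (limma adjusted p = 1.17e-07). Taken alone, replicates 1 to 3 gave 35.9-fold, and replicates 4 to 6 gave 39-fold. In ND+oil miR-122 was above the limit in 5 of 6 samples, and with the negative control mean subtracted the rise was 50.7-fold.

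miR-122 took up 2.36% ± 1.07 of the miRNA count in WD+oil, against 0.0694% ± 0.0366 in ND+oil (SD, n = 6 each). The difference of 2.29 percentage points was the extreme arrangement of the 12 samples (adjusted p = 0.0108 over 5 library measures, exact two-sided permutation test; the smallest unadjusted p possible is 0.0021645). Replicates 1 to 3 alone gave 3.21 points, and replicates 4 to 6 gave 1.36.

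miR-192, abundant in liver, gut and kidney, was at 823, 1224 and 4297 in WD+oil, against 109, 165 and 230 in ND+oil. The groups did not overlap, and WD+oil replicate 3 was the highest sample. The log2 difference was 3.16 ± 0.35 (limma adjusted p = 5.44e-06), an 8.96-fold rise. Only 3 of 6 ND+oil samples were above the limit, all in replicates 4 to 6, and in that set the rise was 6.71-fold. miR-148a, which targets the LDL receptor and ABCA1 transporter messages, was at 3377, 5367 and 8431 in WD+oil, against 872, 1374 and 1735 in ND+oil. It was above the limit in all 12 samples, and the lowest WD+oil sample was nearly at 2 times the highest ND+oil sample. The difference was 2.0 ± 0.24 on the log2 scale (limma adjusted p = 9.1e-06).

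**Figure D2:**
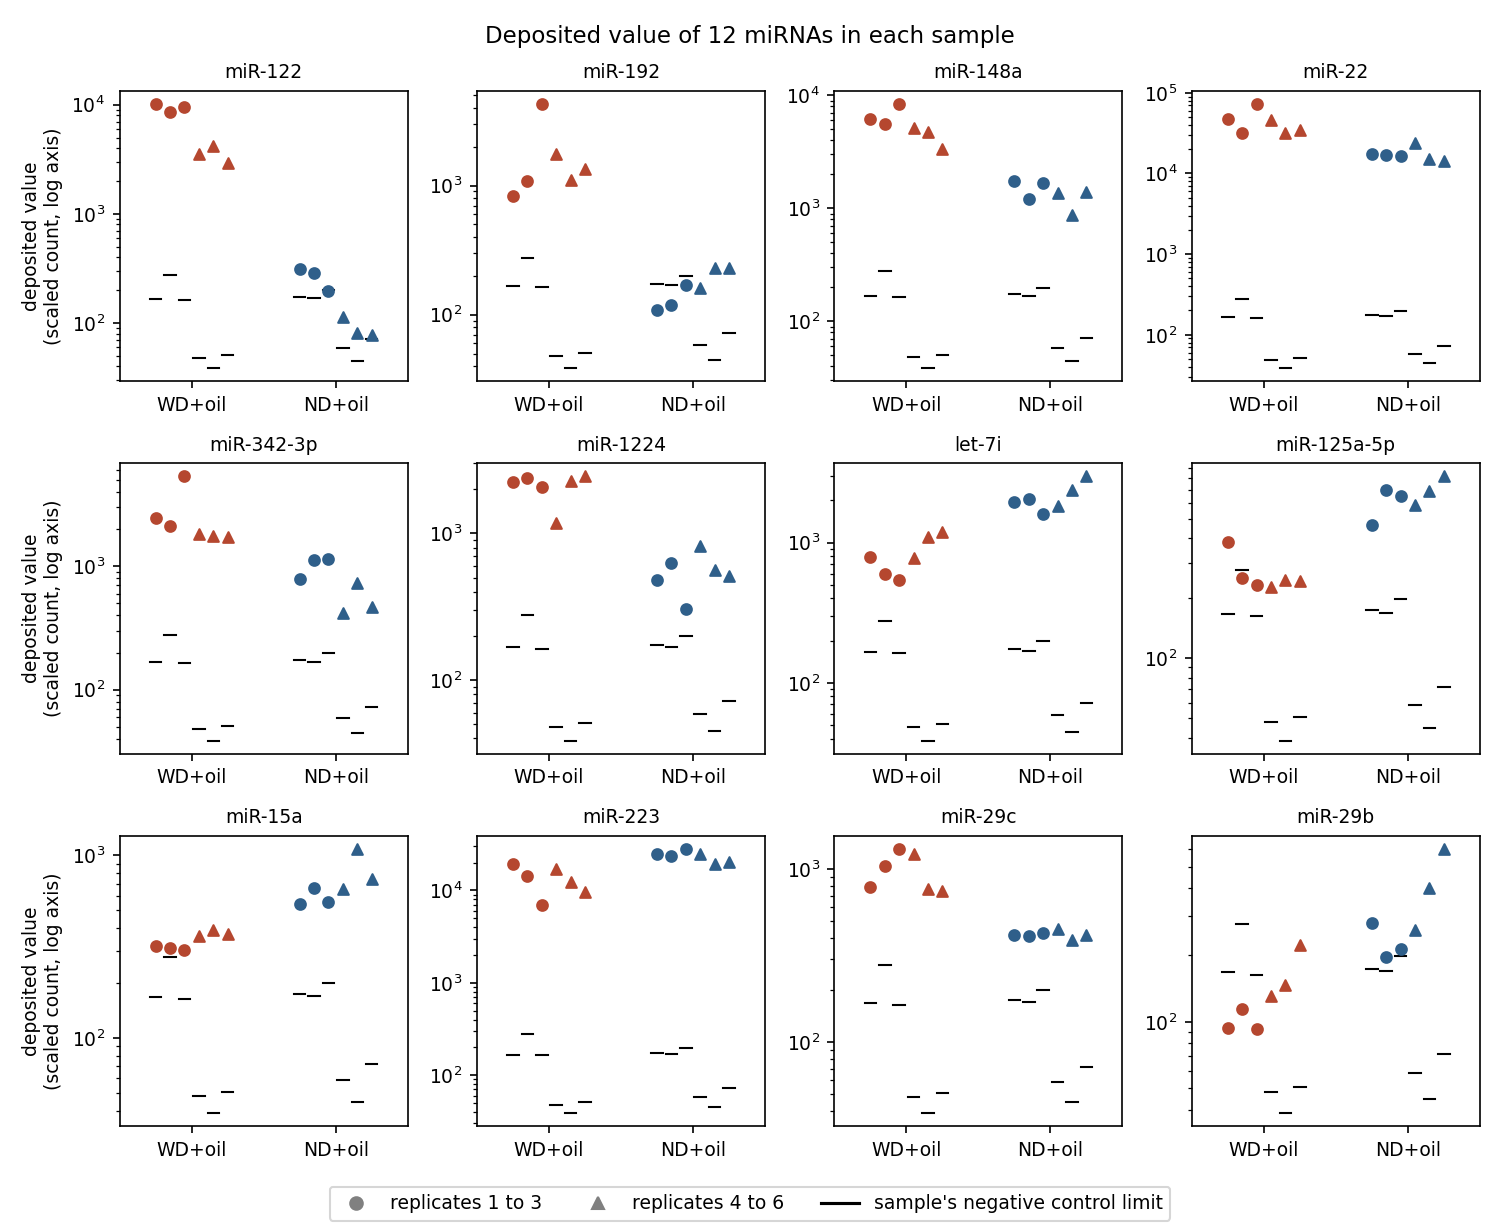
Deposited value (scaled count, log y axis) of 12 miRNAs in each WD+oil and ND+oil sample; circles are replicates 1 to 3, triangles replicates 4 to 6, and short lines each sample's negative control limit. The WD+oil points of miR-122 (2949 to 10211) lie far above the ND+oil points (78.0 to 313), while miR-29b in WD+oil falls under the limit in replicates 1 to 3 and its cluster mate miR-29c does not.

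In the list of miRNAs linked to lipid and glucose metabolism 2 of 3 tested members were called, both higher, against 16.1% of the 112 (9 in the table, of which 6 were not tested; median 1.06, against -0.24 over all). miR-378, encoded in an intron of the PGC-1β gene Ppargc1b, was at 1130, 1473 and 4518 in WD+oil, against 531, 619 and 1165 in ND+oil. WD+oil replicate 3 was well above the others, and 1 ND+oil sample reached the WD+oil range. The difference was 1.32 ± 0.31 on the log2 scale (limma adjusted p = 0.0028). miR-27b, a regulator of lipid metabolism genes, was at 216, 318 and 419 in WD+oil, against 81.2, 144 and 209 in ND+oil, where 4 of 6 samples were above the limit. Its log2 difference was 1.06 ± 0.26 (limma adjusted p = 0.0035), without overlap. miR-27a, which shares its seed and comes from the other cluster of the family, was 0.52 ± 0.22 higher on the log2 scale and was not called (adjusted p = 0.069; 0.0267 with replicate number as a block).

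miR-22, encoded in an exon of a non-coding host gene and abundant in liver and muscle, was among the most abundant miRNAs. It was at 32059, 40706 and 73317 in WD+oil, against 14083, 16832 and 23663 in ND+oil. The groups did not overlap, and the log2 difference was 1.31 ± 0.21 (limma adjusted p = 0.00019).

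The miR-30 family, which is abundant in epithelial cells and represses fibrosis-related genes, had 5 members tested. Of these 2 were called higher, against 16.1% of the 112, and 4 had a difference above 0 (median 0.55, against -0.24 over all). miR-30a was at 978, 1362 and 3172 in WD+oil, against 323, 427 and 543 in ND+oil, without overlap (log2 difference 1.75 ± 0.26, limma adjusted p = 0.00012). miR-30d was at 1555, 1698 and 2647 in WD+oil, against 993, 1040 and 1197 in ND+oil, also without overlap (0.84 ± 0.19, limma adjusted p = 0.0027). miR-30c and miR-30e, which lie together on chromosome 4, had log2 differences of 0.55 and 0.49 and were not called, and miR-30b was at -0.28. miR-30c had an adjusted p of 0.099 in limma, and of 0.0279 with replicate number as a block.

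Among the miRNAs that inflammatory signals induce, 2 of 3 tested were called higher, against 16.1% of the 112 (6 in the table; median 1.06, against -0.24 over all). miR-146a, which NF-κB induces and which restrains TRAF6 and IRAK1, was at 2920, 4749 and 8272 in WD+oil, against 1570, 1978 and 3405 in ND+oil. The groups overlapped by 1 sample, and the log2 difference was 1.23 ± 0.27 (limma adjusted p = 0.0017). miR-132, a CREB-induced miRNA known in neurons and immune cells, was at 589, 695 and 873 in WD+oil, against 252, 333 and 501 in ND+oil, without overlap (1.06 ± 0.21, limma adjusted p = 0.00089). miR-21, the third member and a miRNA often reported higher in fibrosis and cancer, was at 4302, 5475 and 8541 in WD+oil and at 3532, 4962 and 6406 in ND+oil. Those ranges overlapped widely, and the log2 difference of 0.17 had a 95% interval of -0.26 to 0.61. Of the list of miRNAs reported higher in liver fibrosis, none of 4 tested was called in limma (7 in the table; median -0.08). One of them, miR-199a-3p, had a log2 difference of -0.64 with an adjusted p of 0.179, and of 0.0146 with replicate number as a block.

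Leukocyte miRNAs were called in both directions. In the lymphoid list all 3 tested members were called, 1 higher and 2 lower, against 41.1% of the 112 (5 in the table). miR-342-3p, encoded in the Evl gene, was at 1719, 1970 and 5351 in WD+oil, against 416, 758 and 1137 in ND+oil, without overlap (log2 difference 1.68 ± 0.32, limma adjusted p = 0.00073). miR-181a, a regulator of T cell receptor signalling, was lower, at 137, 197 and 276 in WD+oil, against 343, 423 and 649 in ND+oil. These groups did not overlap either (-1.15 ± 0.23, limma adjusted p = 0.00084), although 2 WD+oil samples were under the limit. miR-150, abundant in mature lymphocytes, was at 1826, 2966 and 3560 in WD+oil, against 2702, 4805 and 8083 in ND+oil (-0.79 ± 0.27, limma adjusted p = 0.025). Its groups overlapped, and leaving out ND+oil replicate 2, ND+oil replicate 3 or WD+oil replicate 6 ended the call, with an adjusted p of up to 0.0682.

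Of the myeloid list, 4 of 6 members in the table were tested, 1 called higher (miR-146a) and 2 lower. miR-223, the main miRNA of neutrophils and also abundant in platelets, was at 6957, 13245 and 19372 in WD+oil, against 19118, 24310 and 28186 in ND+oil. Only 1 WD+oil sample reached the ND+oil range, and the log2 difference was -0.90 ± 0.23 (limma adjusted p = 0.0042). miR-142-3p, present in all blood cell lineages, was at 168, 206 and 345 in WD+oil, against 298, 465 and 866 in ND+oil (-1.20 ± 0.29, limma adjusted p = 0.0033). miR-142-5p, the other strand of that hairpin, was at 486, 779 and 1709 in WD+oil and at 553, 910 and 1311 in ND+oil, and was not called (log2 difference -0.04, 95% interval -0.71 to 0.63). In the platelet list 2 of 6 were called, both lower, a share near the 25% of all 112. They were miR-223 and miR-191, which was at 694, 1262 and 1761 in WD+oil, against 1192, 2341 and 2874 in ND+oil (-0.83 ± 0.26, limma adjusted p = 0.015).

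Of 6 tested erythroid miRNAs, 1 was called, against 41.1% of the 112, and the list's median was 0.03 (-0.24 over all). miR-451, the most abundant miRNA of red cells, was at 27083, 70851 and 80511 in WD+oil and at 44684, 68385 and 106796 in ND+oil (log2 difference -0.14, 95% interval -0.70 to 0.43). miR-25, miR-486 and miR-92a had log2 differences of 0.17, 0.15 and 0.62 and were not called (miR-92a adjusted p = 0.22, and 0.046 with replicate number as a block). The haemolysis index, the log2 difference of miR-451 over miR-23a, was 2.96 ± 0.62 in WD+oil and 3.45 ± 0.32 in ND+oil (SD, n = 6 each; adjusted p = 0.254, exact permutation test). WD+oil replicate 3 had the lowest index (1.80) and also the highest miR-192, miR-148a, miR-22, miR-30a, miR-342-3p and miR-378. The called miRNA was miR-144, which is transcribed with miR-451. It was at 363, 373 and 483 in WD+oil, against 480, 928 and 1680 in ND+oil (-1.15 ± 0.28, limma adjusted p = 0.0034).

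Of the miRNAs of tissues that serum rarely holds, little was measured and none of 4 muscle miRNAs tested was called. Those of the heart, miR-208a and miR-499, were about 1 log2 unit lower in WD+oil (-1.03 and -1.08), with adjusted p of 0.099 and 0.09 in limma and of 0.0279 and 0.0482 with the block. The spread of miR-208a was wide, with 66.6, 220 and 353 in WD+oil and 184, 324 and 1556 in ND+oil, where replicate 1 gave the highest value. None of the 5 pancreas and endocrine miRNAs passed the filter.

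The let-7 family, which restrains proliferation and is controlled by LIN28, had 4 of 6 tested members called lower, against 25% of the 112 (9 in the table). All 6 had a difference below 0 (median -0.98, against -0.24 over all). let-7i was at 543, 783 and 1190 in WD+oil, against 1609, 1997 and 2971 in ND+oil (-1.39 ± 0.24, limma adjusted p = 0.00025). let-7b was at 366, 865 and 1466 in WD+oil, against 1582, 2045 and 2302 in ND+oil (-1.29 ± 0.27, limma adjusted p = 0.0012). Neither overlapped between the groups. let-7g did not overlap either, at 1262, 2205 and 2833 in WD+oil, against 3078, 3808 and 4970 in ND+oil (-0.87). let-7d was at 360, 588 and 991 in WD+oil, against 799, 1176 and 2046 in ND+oil (-1.08), and these ranges overlapped. let-7c and let-7f had log2 differences of -0.78 and -0.60 and were not called (adjusted p = 0.088 and 0.099 in limma, 0.0227 and 0.0302 with replicate number as a block). The members of this family differ by few bases, and cross-reaction of the probes was not tested. let-7a did not pass the filter. It was at 1.1 to 5.7 in replicates 1 to 4 of both groups. In replicates 5 and 6 it was at 362 to 396 in WD+oil and at 950 to 1035 in ND+oil. The cause of this break between replicates 4 and 5 was not tested.

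The list of miR-99/100 and miR-125, whose genes lie beside let-7 genes, is not a seed family, since miR-99a and the miR-125 members have different seeds. Of its tested members 2 of 3 were called lower, against 25% of the 112 (5 in the table; median -0.91, against -0.24 over all). miR-125a-5p was at 228, 245 and 382 in WD+oil, against 465, 671 and 815 in ND+oil, without overlap (-1.30 ± 0.21, limma adjusted p = 0.00019). miR-99a ranged over 93.6 to 131 in WD+oil, without reaching the ND+oil samples, which had a median of 214 (-0.91 ± 0.21, limma adjusted p = 0.0028), but 3 WD+oil and 2 ND+oil samples were under the limit. miR-125b-5p, which shares the seed of miR-125a-5p, was at 278, 870 and 1595 in WD+oil and at 375, 779 and 1630 in ND+oil, a log2 difference of -0.04 with a 95% interval of -1.02 to 0.95.

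In the miR-15/16 family, which targets cyclins and BCL2, 2 of 3 tested members were called lower, against 25% of the 112. miR-15a was at 304, 341 and 388 in WD+oil, against 543, 660 and 1083 in ND+oil, without overlap (-1.01 ± 0.21, limma adjusted p = 0.0011). miR-15b was at 463, 743 and 1015 in WD+oil, against 945, 1369 and 2735 in ND+oil (-1.07 ± 0.29, limma adjusted p = 0.0069). Their seed mate miR-16 was far more abundant and was not called, at 8387, 10730 and 12838 in WD+oil and at 9740, 10797 and 13465 in ND+oil (log2 difference -0.08, 95% interval -0.45 to 0.28).

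Of the miR-17-92 cluster and its paralogs, which promote the cell cycle downstream of MYC, 2 of 8 tested probes were called, both lower, the same share as the 25% of all 112 (median -0.31, against -0.24). The probe for miR-17 and miR-106a was at 1015, 1504 and 1618 in WD+oil, against 1793, 2998 and 3406 in ND+oil, without overlap (-0.90 ± 0.21, limma adjusted p = 0.0032). The probe for miR-20a and miR-20b was at 2056, 3883 and 5243 in WD+oil, against 5079, 6977 and 9521 in ND+oil (-0.97 ± 0.24, limma adjusted p = 0.0034). Each of these probes reads 2 miRNAs of different clusters, on chromosomes 14 and X, which cannot be told apart. Of the family of miR-130 and miR-301a, 2 of 3 were called lower. miR-301a had a log2 difference of -0.96 (limma adjusted p = 0.0064) and miR-130b of -0.63 (limma adjusted p = 0.035). The miR-130b call was lost without ND+oil replicate 1, 3 or 4 or WD+oil replicate 3 or 5, with an adjusted p of up to 0.0892.

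**Figure D3:**
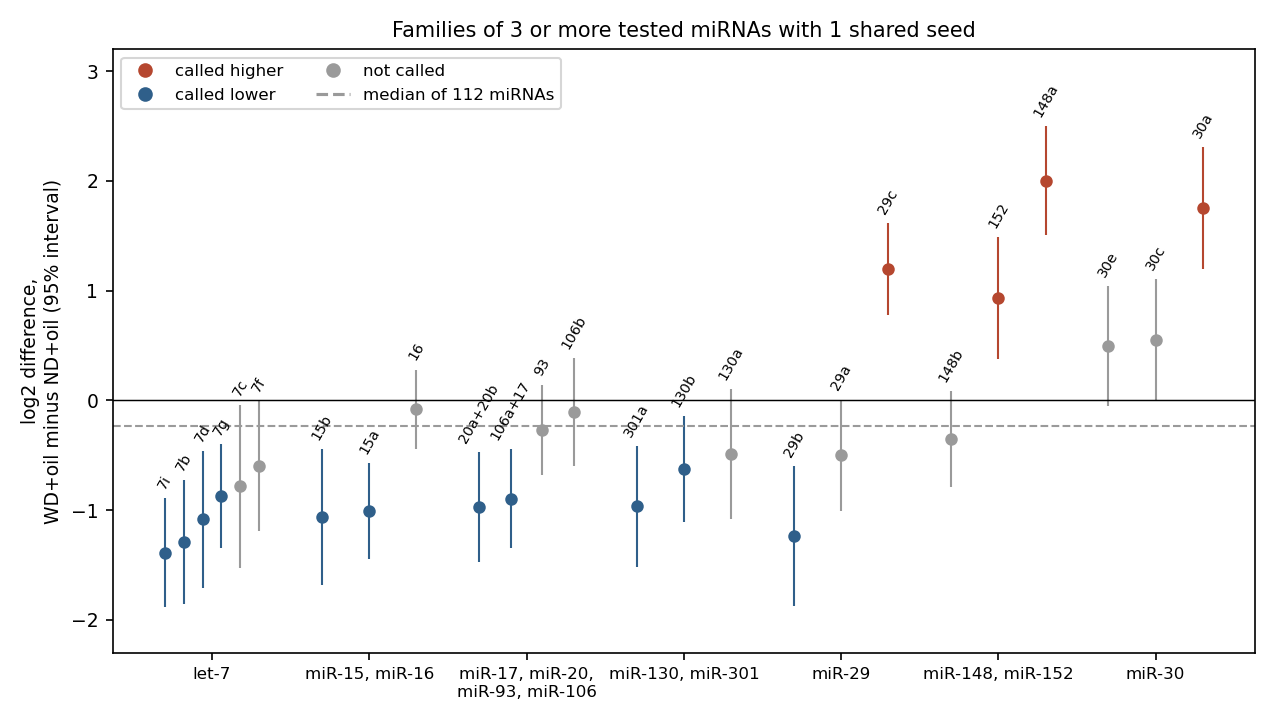
Log2 difference of WD+oil minus ND+oil (y axis, bars are 95% intervals) for members of the 7 families with 3 or more tested miRNAs sharing a seed; red was called higher, blue lower, gray not called, and the dashed line is the median of all 112 miRNAs (-0.24). The 6 let-7 members all lie below 0, whereas the 3 miR-29 members spread from -1.24 to 1.2.

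The miR-29 family, which represses collagen and other matrix genes and falls in liver fibrosis, did not move together. miR-29c was higher, at 750, 917 and 1306 in WD+oil, against 386, 413 and 447 in ND+oil, without overlap (log2 difference 1.2 ± 0.20, limma adjusted p = 0.00022). miR-29b was lower, at 92.6, 123 and 222 in WD+oil, against 196, 269 and 602 in ND+oil (-1.24 ± 0.30, limma adjusted p = 0.0034). miR-29a, the most abundant member, was at 3117, 4083 and 6224 in WD+oil and at 3712, 6671 and 8665 in ND+oil (-0.50; adjusted p = 0.11, and 0.0305 with replicate number as a block). Mature miR-29b and miR-29c come from 1 cluster on the plus strand of chromosome 1 in GRCm38.p6, at chr1:195037091-195037113 and chr1:195037600-195037621. miR-29b has a second gene beside that of miR-29a on the minus strand of chromosome 6, at chr6:31063025-31063047. The 3 WD+oil samples of replicates 1 to 3 had miR-29b under their limit, so its level there is only bounded. In replicates 4 to 6, where it was above the limit in all samples, miR-29b in WD+oil was at 0.408 of the ND+oil level.

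Pairs of miRNAs of 1 cluster or hairpin were also compared within each sample, which leaves out any scaling of the sample. Mature miR-16 comes from a gene beside that of miR-15a on chromosome 14 and from another beside that of miR-15b on chromosome 3. As miR-29b also has another gene, the members of these pairs need not come from 1 transcript. The 4 pairs were chosen after their values were seen and are described without a test. miR-29c exceeded miR-29b by 2.90 ± 0.72 log2 units in WD+oil, against 0.47 ± 0.64 in ND+oil (SD, n = 6 each), with no overlap. The shift of 2.43 was as large in each set (2.48 in replicates 1 to 3, 2.39 in replicates 4 to 6). miR-16 exceeded miR-15a by 4.93 ± 0.24 in WD+oil, against 4.0 ± 0.41 in ND+oil, again with no overlap. miR-451 exceeded miR-144 by 7.25 ± 0.54 in WD+oil, against 6.24 ± 0.91 in ND+oil. Replicates 1 to 3 gave a shift of 0.15 here, and replicates 4 to 6 of 1.88. miR-142-5p exceeded miR-142-3p by 1.91 ± 0.97 in WD+oil, against 0.75 ± 1.04 in ND+oil, and the ranges overlapped.

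**Figure D4:**
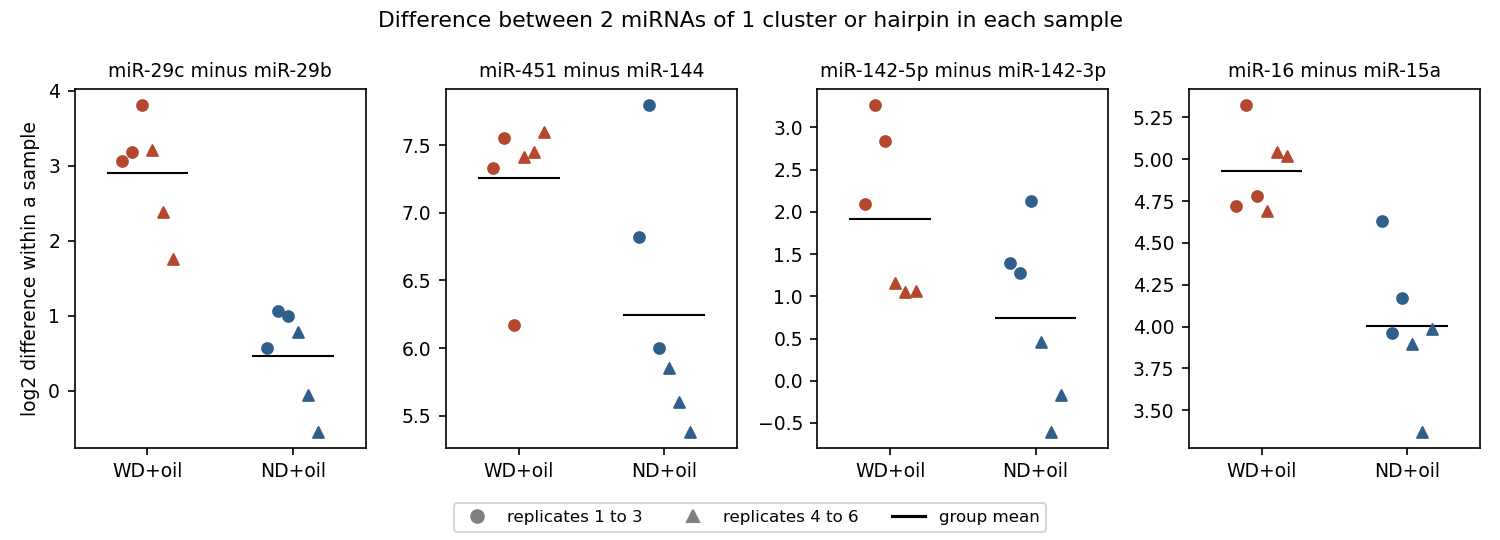
Log2 difference within each sample (y axis) between 2 miRNAs of 1 cluster or hairpin, for WD+oil and ND+oil samples; circles are replicates 1 to 3, triangles replicates 4 to 6, lines group means. For miR-29c minus miR-29b every WD+oil sample (1.75 to 3.80) exceeds every ND+oil sample (-0.55 to 1.06), and miR-16 minus miR-15a separates the groups likewise.

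The family of miR-148a and miR-152, whose targets include DNA methyltransferase DNMT1, had 2 of 3 members higher. Besides miR-148a, miR-152 was at 269, 360 and 640 in WD+oil, against 153, 189 and 274 in ND+oil, where 4 of 6 samples were above the limit (0.93 ± 0.26, limma adjusted p = 0.0076). miR-148b was at 381, 463 and 499 in WD+oil and at 408, 580 and 844 in ND+oil, a log2 difference of -0.35 with a 95% interval of -0.79 to 0.09.

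The remaining rises were of less studied miRNAs. miR-1224, a mirtron, which is cut out as a short intron by the spliceosome, was at 1183, 2254 and 2447 in WD+oil, against 304, 538 and 817 in ND+oil, without overlap (1.95 ± 0.25, limma adjusted p = 2.4e-05). It was the only 1 of 3 mirtrons in the table that was tested. miR-2137 was at 1326, 2720 and 3339 in WD+oil, against 264, 647 and 1072 in ND+oil (2.12 ± 0.35, limma adjusted p = 0.00022). miR-574-3p, miR-1196 and miR-676 were low and partly under the limit in both or in ND+oil samples. Their log2 differences were 1.13, 1.07 and 0.84, with limma adjusted p of 0.012, 0.012 and 0.046. The miR-676 call was lost, with an adjusted p of up to 0.106, without ND+oil replicate 3, 4, 5 or 6 or WD+oil replicate 1, 3, 4 or 5. The calls of miR-676, miR-1196 and the fall of miR-26b were lost with background subtracted (adjusted p = 0.36, 0.073 and 0.077).

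The remaining falls included 2 of 3 tested members of the large cluster in an intron of Sfmbt2, a placental gene imprinted in mice. miR-669a was at 44.1, 67.4 and 81.7 in WD+oil, against 98.2, 194 and 264 in ND+oil (-1.46 ± 0.28, limma adjusted p = 0.00066), and its groups did not overlap. miR-669f ranged over 137 to 390 in WD+oil, against 283 to 980 in ND+oil (-1.28 ± 0.33, limma adjusted p = 0.0049). Members of that cluster are near-identical in sequence, so their probes may read each other. miR-151-5p was at 75.0, 117 and 151 in WD+oil, against 214, 259 and 369 in ND+oil, without overlap (-1.25 ± 0.23, limma adjusted p = 0.00058). miR-340-5p was at 57.4, 74.2 and 126 in WD+oil, against 140, 182 and 217 in ND+oil (-1.15). miR-128, known best from neurons, was at 48.5, 79.9 and 101 in WD+oil, against 109, 171 and 413 in ND+oil (-1.29). Neither of the last pair overlapped between the groups. However, miR-128 was above the limit in only 3 of 6 samples of each group, those of replicates 4 to 6. miR-340-5p was above it in 3 WD+oil and 4 ND+oil samples.

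These low miRNAs share a limit. Of the 28 falls, 12 were under the negative control limit in at least 1 WD+oil sample, and 7 of the 18 rises were under it in 1 to 4 ND+oil samples. At least 3 WD+oil samples were under it for 7 falls (miR-669a, miR-151-5p, miR-340-5p, miR-128, miR-29b, miR-99a and miR-26b). At least 3 ND+oil samples were under it for 3 rises (miR-192, miR-1196 and miR-676). For such miRNAs the deposited values hold background and understate the change. Of the 59 miRNAs above the limit in all 12 samples, 27 were called, 11 higher and 16 lower, when fitted alone. The other falls were in miR-328 (-1.10), miR-26b (-0.91), miR-326 (-0.81) and miR-350 (-0.61). The miR-326 call was lost without ND+oil replicate 3 or 4 or WD+oil replicate 5 or 6 (adjusted p of up to 0.0593). The miR-350 call was lost without any 1 of 8 libraries, ND+oil replicates 1, 3, 4 and 6 and WD+oil replicates 1, 2, 3 and 6 (up to 0.0759). Both, and miR-130b, were also not called by edgeR.

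The 2 sets of replicates share no sample, and each was fitted alone. In replicates 1 to 3, 36 of 112 miRNAs (32.1%) were called, 17 higher and 19 lower in WD+oil, and in replicates 4 to 6, 38 (33.9%), 16 higher and 22 lower. Both sets called 27 miRNAs, which is 75% of the calls in replicates 1 to 3 and 71.1% of those in replicates 4 to 6. All 27 had the same direction. They include miR-128, which was under the negative control limit in every sample of replicates 1 to 3, so its call in that set was made on background values. They also include miR-340-5p, which in that set was above the limit in ND+oil replicate 1 only. All of the 46 miRNAs called over 12 samples, and 89 of the 112, also had the same sign in both sets. Across the 112 miRNAs the 2 sets' differences had a Pearson r of 0.91 and a Spearman rho of 0.83, or an r of 0.87 without miR-122 and miR-192. miRNAs are not independent replicates, and the sets share the panel's probes and the scaling, so this is a description.

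Whether the diet difference itself depended on the set was tested with an interaction term. None of the 112 miRNAs passed in limma, and 2 had an unadjusted p under 0.05. By limma, miR-144 was 0.54 log2 units lower in WD+oil in replicates 1 to 3 and 1.76 lower in replicates 4 to 6 (limma interaction adjusted p = 0.628). The 5 smallest p also held miR-2133, miR-762, miR-145 and miR-205, with an adjusted p of 0.984 for each of the first pair. With background subtracted, 1 miRNA passed, miR-340-5p, whose WD+oil values in replicates 1 to 3 were under the limit.

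**Figure D5:**
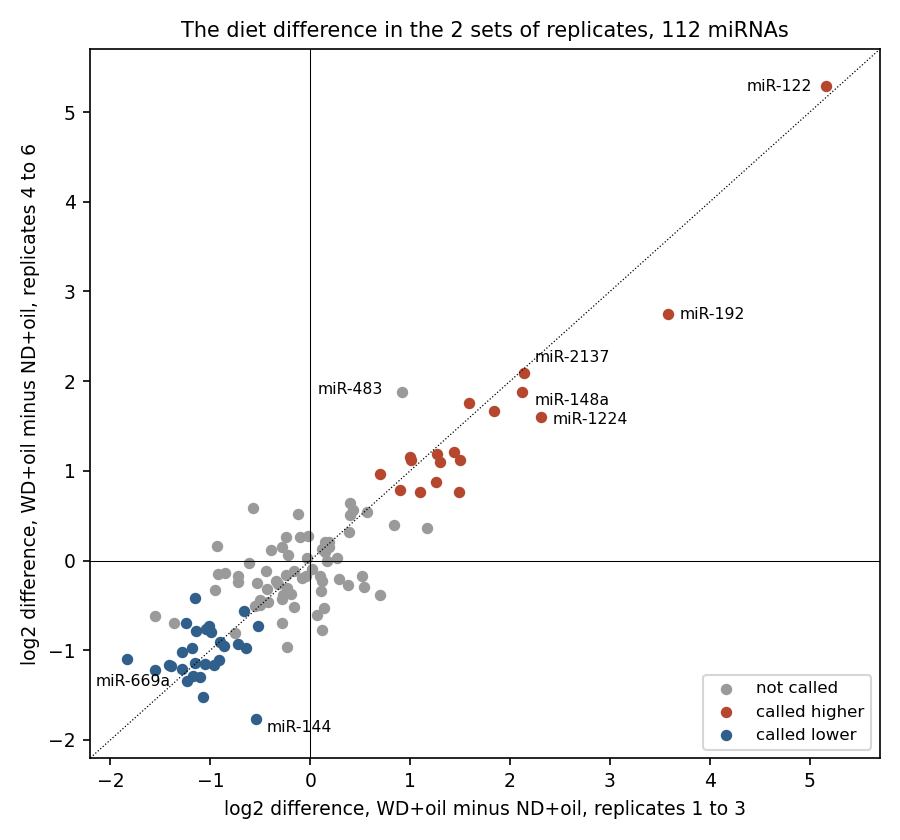
Log2 difference of WD+oil minus ND+oil in replicates 1 to 3 (x axis) and in replicates 4 to 6 (y axis) for the 112 miRNAs tested; red was called higher, blue lower and gray not called over the 12 samples, and the dotted line marks equal differences. All 46 called miRNAs lie in the quadrants of equal sign, with miR-122 at 5.17 and 5.28 and miR-144 farthest from the line among those called lower.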

How the data were processed

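Serum exosomal RNA of 12 samples, extracted with a miRNeasy micro kit per the labels' protocols, was analysed from 1 deposited table of 626 features by 24 samples in the unit signal, that is scaled digital counts. From the values, the authors multiplied each sample's counts by 1 factor (0.933 to 5.72 here), which made the geometric mean of the 100 most abundant miRNAs equal (580.2), and raised values under 1 to 1 (5 values here). Control probes were left unscaled. The counting and scaling software is not given in the sources used here. Dividing it out returned whole numbers, within 0.05 counts, for all 7339 of 7339 values above 1 (100%). Recovery was tested on simulated data (100% of 3082 counts equal). Total counts set the precision, and samples of a group differed by more than counting noise (chi-square per degree of freedom at least 18.6 for any 2 samples of a group). No samples were duplicates.

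The main test was a limma fit (version 3.58.1 in R 4.3.3; lmFit, then eBayes with trend) of log2(value + 1), over the 12 samples alone, two-sided, with Benjamini-Hochberg adjustment over the 112 probes above the limit in at least 6 of 12 samples. Of those probes 3 read several miRNAs. Fold changes are 2 to the power of this log2 difference and understate the change of low miRNAs. The 12 samples were fitted alone knowing that 2 carbon tetrachloride libraries widen the spread in a fit of all 24, which is given as an alternative. Lists and members were chosen with earlier results of these data known. All called miRNAs are named, with list members of the smallest p, members of seed families, and relatives of called miRNAs chosen after their values were seen. Library measures were tested by exact two-sided permutation (scipy 1.17.1), adjusted over 5 measures. Alternatives were other scalings, filters, pseudocounts (0.5 and 10), background subtraction, covariates, edgeR 4.0.16 and DESeq2 1.42.0 on the recovered counts, each set of replicates, and each library left out.

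Groups share replicate numbers in the titles. The residuals of same-numbered samples correlated at over 0.1 in all 6 pairs (0.28 to 0.68). A fit with the number as a block is therefore given beside the main test, which had no block. In replicates 1 to 3, though, each WD+oil sample correlated best with an ND+oil sample of another number, and other numbers of that set had a median correlation of 0.35 to 0.44, above the 0.28 to 0.38 of the same number, so a pairing beyond the set was not seen there. In replicates 4 to 6 each correlated best with its own number. With the mean of the set removed, the correlation was -0.14 to -0.02 in replicates 1 to 3 and 0.32 to 0.42 in replicates 4 to 6. With the number as a block, 58 miRNAs were called, 0 of the 46 were lost and 12 were added. The adjusted p given above with the block belong to this alternative, and the 12 are not counted as called.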

Additional observations from a re-analysis of the deposited data

Results flagged for a closer look

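In 5 of 102 groups of 6 samples checked, 1 sample lay far from the other 5, about as many as chance gives (about 1 in 20). On the log2 scale, miR-1224 was 10.21 in WD+oil replicate 4, against 11.01 to 11.26 in the other WD+oil samples. miR-125a-5p was 8.58 in WD+oil replicate 1, against 7.84 to 7.98. miR-342-3p was 12.39 in WD+oil replicate 3, against 10.75 to 11.25, and miR-378 was 12.14 in the same sample, against 10.14 to 10.72. miR-301a was 8.35 in WD+oil replicate 2, against 7.32 to 7.70. Each of these 5 miRNAs kept its call when that library was left out.

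For 2 miRNAs every WD+oil sample of replicates 1 to 3 lay on one side of the ND+oil mean of its set and every WD+oil sample of replicates 4 to 6 on the other. miR-2133 was 0.70 higher in replicates 1 to 3 and 0.39 lower in replicates 4 to 6, a difference of -1.09 (limma interaction adjusted p = 0.984). miR-762 was 0.54 higher and 0.30 lower, a difference of -0.83 (limma interaction adjusted p = 0.984). Neither passed the adjustment over 112 miRNAs.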

How the results depend on the processing

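No called miRNA changed direction under any alternative, and 41 of the 46 were called in each of the 12 fits that left out 1 library (42 to 48 calls). Replicate number as a block gave 58 calls and ended none of the 46. Counts of 17 calls (8 higher, 9 lower) came from a fit of all 24 samples, which shares the spread of the carbon tetrachloride groups, and 15 of those were among the 46. Without replicate 1 of both carbon tetrachloride groups, 44 of the 46 were called. Spike-in scaling left 2 calls, miR-122 and miR-192 (2 higher, 0 lower) with differences of similar size (miR-148a 2.11 against 2.0, miR-29c 1.31 against 1.2 in the deposited values), and the cause was not tested. A filter of all 12 samples above the limit tested fewer miRNAs and gave 27 calls (11 higher, 16 lower). The other alternatives gave 36 to 58 calls, 49 with edgeR and 51 with DESeq2, and 43 with background subtracted. Apart from the 24-sample fit and spike-in scaling, 27 of the 46 were called in every alternative in which they were tested. The set interaction gave 0 calls, or 1 with background subtracted. The difference in the share of miR-122 was 3.21 points in replicates 1 to 3 and 1.36 in replicates 4 to 6.

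Uncalled miRNAs near 0 changed sign, none with a call except where stated. miR-16 was at 0.061 in replicates 4 to 6, 0.11 median centred, 0.027 with spike-in scaling, 0.070 with the haemolysis covariate, 0.12 with edgeR and 0.082 with DESeq2. miR-451 was at 0.11 in replicates 4 to 6, 0.053 median centred, 0.066 with library weights, 0.064 with edgeR, 0.039 with DESeq2, and -0.26 to 0.10 with 1 library left out. It was at 0.35 (limma adjusted p = 0.036) with the haemolysis covariate, which is built from miR-451. miR-142-5p was at 0.022 in replicates 1 to 3, 0.15 median centred, 0.071 with spike-in scaling, 0.017 with the background covariate, 0.22 with edgeR, 0.17 with DESeq2, and -0.24 to 0.12 with 1 library left out. miR-125b-5p was at 0.098, 0.15, 0.073, 0.049, 0.22 and 0.19 under the same 6, and -0.27 to 0.23 with 1 library left out. miR-21 was at -0.17 in replicates 4 to 6 and -0.088 with the haemolysis covariate. With 1 library left out, the difference in miRNAs above the limit was -3.97 to 11.8, and in the log2 limit -0.41 to 0.15. Depth limits the low miRNAs, since replicates 1 to 3 hold few counts above background.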

Other observations

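Beside the 112 miRNAs tested, 59 lay above the limit in 1 to 5 samples, 24 of them in WD+oil samples only, 11 in ND+oil samples only and 24 in both. They were not tested, and their values are given as a description. miR-540-3p, encoded in the imprinted Dlk1-Dio3 domain, was above the limit in 4 WD+oil and 0 ND+oil samples, at 68 to 172 in WD+oil, against 6 to 33 in ND+oil, and every WD+oil sample exceeded every ND+oil sample. miR-802, a liver-enriched miRNA raised in obese mice, was above the limit in 3 WD+oil and 0 ND+oil samples, all in replicates 4 to 6. There it was at 78 to 105 in WD+oil, against 19 to 33 in ND+oil. miR-450a-5p was above the limit in 0 WD+oil and 3 ND+oil samples. miR-872 and miR-98, a let-7 relative, were each above it in 0 WD+oil and 2 ND+oil samples. These miRNAs were chosen after their values were seen.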
